A study of Mus musculus with 6 samples.

Results

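The genes described here are 10 that place lysosomes within the osteoclast: *Plekhm1*, *Plekhm2*, *Def8*, *Arl8a*, *Arl8b*, *Snx10*, *Fam98a*, *Pafah1b1*, *Ndel1* and *Kif5b*. They were taken by symbol from a table of read counts with 22601 genes, 10 of 10 symbols were found, and 10 of 10 passed the filter on low counts that left 13483 genes for testing. The counts come from RNAseq of 3 WT and 3 *Slc37a2* KO libraries. Per the sample labels, both groups are osteoclasts grown from bone marrow macrophages (BMMs) over 5 days with 10 ng/ml RANKL, the cytokine that drives osteoclast formation, and 2 ng/ml M-CSF. The KO mice are homozygous for Slc37a2 tm2a(KOMP)Wtsi, a gene-trap allele carried through the germline from a single embryonic stem cell clone on the C57BL/6N background, and WT are littermates. Libraries are named here by the animal number in their column headings (WT K090, L080 and L082, KO K089, L078 and L081), where all 6 also carry an F and 11 weeks. No Cre line is described for these mice, and the allele, carried through the germline, was present in every cell of the donor animals.

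Osteoclasts resorb bone by sending lysosome-related organelles, the secretory lysosomes, along microtubules to the bone-facing membrane, where their fusion builds the ruffled border. The small GTPase Arl8 recruits kinesin to lysosomes through the adaptor Plekhm2 and so moves them outward, while Plekhm1 binds Rab7 and Arl8 and couples lysosomes to tethering and fusion. Dynein, with its regulators Lis1 (*Pafah1b1*) and Ndel1, carries lysosomes back toward the nucleus. Mutations in *PLEKHM1* and in *SNX10* cause osteopetrosis, a disease of failed bone resorption.

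Library totals ran from 27552183 to 42522292 counts, and the TMM factors that scale them from 0.931 to 1.06. *Slc37a2* itself was at 1857, 2151 and 2440 scaled CPM (counts relative to the library total after TMM scaling, as CPM) in WT and at 45.3, 32.1 and 36.9 in KO, so each library was at the level its genotype label implies. The study's RNAseq methods describe RNA from whole femurs and tibias, unlike the labels. Osteoclast markers (9 of 9 present) summed to between 39345 and 69884 CPM before TMM scaling, whereas neutrophil markers (4 of 5 detected) summed to at most 1.21 CPM and red cell markers (1 of 5 detected) to at most 0.0674 CPM. Marker levels also varied across genotype. KO K089, KO L081 and WT L082 had the highest osteoclast sums (69884, 63690 and 56870 CPM) and the lowest interferon response sums (9.43, 21.9 and 16.2 CPM). WT K090, WT L080 and KO L078 had lower osteoclast sums (39345, 51454 and 43860 CPM), interferon sums of 136, 67.5 and 82.2 CPM, and macrophage sums of 7650 to 8311 CPM against 5066 to 5311 CPM in the other 3. The macrophage difference lay mainly in *Lyz2* (3658 to 4459 against 950 to 1336 CPM), while *Csf1r* stayed between 1827 and 1951 CPM and *Cd68* was the lower, at 1512 to 1621 against 1849 to 2096 CPM. The osteoclast sums were mainly *Mmp9*, *Ctsk* and *Acp5* (17841, 8220 and 9795 CPM in WT K090). *Acp5*, *Ctsk*, *Dcstamp*, *Itgb3* and *Atp6v0d2* were each highest in KO K089, KO L081 and WT L082. *Mmp9* and *Oscar* were lower in WT L082 (23886 and 278 CPM) than in WT L080 (24185 and 282 CPM). *Ocstamp* stayed between 250 and 286 CPM, and *Calcr* was lowest in WT L082, at 88.1 CPM. Osteoblast marker sums ran from 525 (KO L081) to 1666 CPM (KO L078) and stromal sums from 42.0 to 126 CPM in the same libraries. The osteoblast sums were mainly *Col1a1* and *Col1a2* (281 and 230 CPM in KO L081, 914 and 726 CPM in KO L078). *Runx2* was at 10.0 to 17.5 CPM, and *Bglap*, *Ibsp*, *Sp7* and *Alpl* did not exceed 7.42 CPM in any library. In these bulk samples, fewer cells of a type and less RNA per cell cannot be told apart.

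*Arl8a* and *Arl8b* are near copies of each other as proteins, so their coding sequences are shown first, to let a reader judge whether reads from one could be counted for the other. In GENCODE M21 (GRCm38, the same assembly as mm10) each has a coding sequence of 561 nt for 186 residues. The coding sequences aligned without gaps and were 79.3% identical, with 116 differing bases, of which 87 (75.0%) lay at the third position of a codon. The longest stretch without a difference was 23 nt, and no stretch reached 30 nt. The most alike stretch of 120 nt, coding bases 46 to 165, had 16 differences, and the least alike, coding bases 295 to 414, had 36. Each is printed 5′ to 3′ on the plus strand, the coding strand of both genes, with capitals at the bases that differ. Every stretch spans an intron, so its coordinates cover more than 120 bases.
Arl8a, bases 46 to 165 (chr1:135147023-135152512): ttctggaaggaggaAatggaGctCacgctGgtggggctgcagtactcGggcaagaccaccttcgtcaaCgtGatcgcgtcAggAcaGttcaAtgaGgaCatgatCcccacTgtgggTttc
Arl8b, bases 46 to 165 (chr6:108783300-108813668): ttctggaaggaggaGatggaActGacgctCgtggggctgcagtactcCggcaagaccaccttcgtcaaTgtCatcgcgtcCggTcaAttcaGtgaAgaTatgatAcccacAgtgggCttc
Arl8a, bases 295 to 414 (chr1:135154192-135154449): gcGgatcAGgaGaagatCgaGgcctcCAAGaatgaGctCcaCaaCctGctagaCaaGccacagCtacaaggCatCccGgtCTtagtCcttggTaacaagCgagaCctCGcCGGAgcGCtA
Arl8b, bases 295 to 414 (chr6:108815274-108818286): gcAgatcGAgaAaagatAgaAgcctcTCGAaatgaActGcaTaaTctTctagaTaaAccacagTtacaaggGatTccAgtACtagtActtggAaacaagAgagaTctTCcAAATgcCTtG
Differences thus recur within at most 23 nt of each other along the coding sequence, and the 2 genes' counts are treated here as separate measurements. The read length is not given in the sources used here.

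To set the 10 genes against each other, their scaled CPM were divided by the length of the longest coding transcript in kilobases. *Snx10* was the most abundant, at 424.5 ± 79.8 CPM per kilobase (SD, n = 6 libraries), followed by *Arl8b* at 110.8 ± 17.3, *Arl8a* at 60.4 ± 2.37, *Plekhm1* at 59.1 ± 11.8 and *Kif5b* at 49.8 ± 6.13. The lower levels were 36.6 ± 0.680 CPM per kilobase for *Pafah1b1*, 24.9 ± 1.80 for *Ndel1*, 21.5 ± 2.72 for *Plekhm2*, 17.3 ± 0.498 for *Fam98a* and 13.2 ± 1.41 for *Def8*. The ranges over libraries of neighbours in this order did not overlap for *Snx10* over *Arl8b*, *Arl8b* over *Arl8a*, *Kif5b* over *Pafah1b1*, *Pafah1b1* over *Ndel1* and *Fam98a* over *Def8*. *Arl8a* and *Plekhm1* could not be ordered, since *Arl8a* was higher in 3 of 6 libraries. The other neighbours overlapped in range, yet kept their order within 6 of 6 libraries. *Ndel1* and *Plekhm2* changed places (ratio 0.911 in place of 1.16) when all exons of coding transcripts gave the length, an alternative added after seeing the data.

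**Figure D1:**
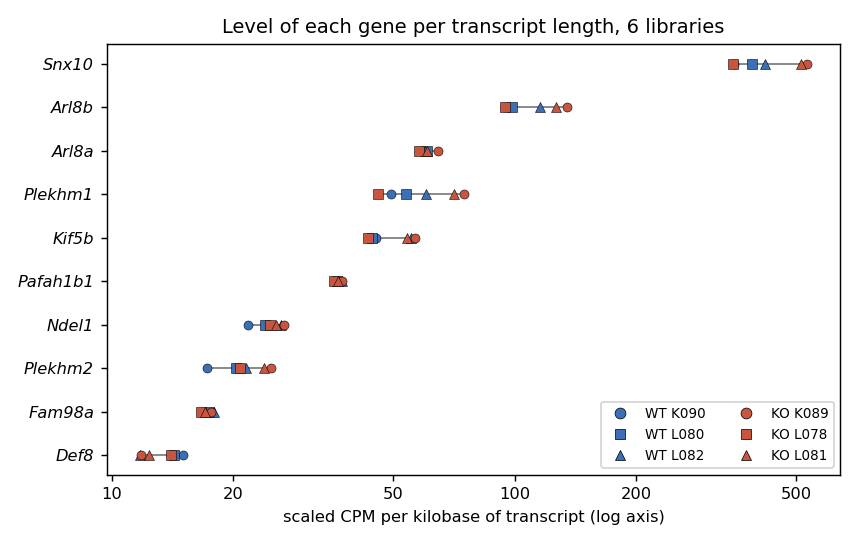
Level of each of the 10 genes in scaled CPM per kilobase of the longest coding transcript (log axis), with 1 point for each of the 6 libraries (blue WT, red KO) and a grey line from the lowest to the highest. *Snx10* lies 3.83-fold above *Arl8b* on average, and *Def8* is lowest.

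Within gene families, 1 member usually held most of the counts per kilobase. *Kif5b* made up 98.2% to 99.0% of the 3 kinesin-1 heavy chain genes *Kif5a*, *Kif5b* and *Kif5c* over the 6 libraries. *Snx10* made up 97.6% to 98.5% of *Snx10* and its closest relative *Snx11*. *Plekhm1* made up 64.1% to 71.9% of *Plekhm1*, *Plekhm2* and *Plekhm3*, and *Arl8b* 61.8% to 67.6% of the *Arl8* pair. *Ndel1*, in contrast, was the lesser partner of its paralog *Nde1*, at 35.3% to 41.1%, and *Fam98a* held 31.6% to 35.9% of the 3 *Fam98* genes.

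The comparison of *Slc37a2* KO with WT asks whether losing this secretory lysosome transporter alters the mRNA of the genes that position the organelle. None of the 10 genes was called in either direction at an adjusted p below 0.05 (edgeR quasi-likelihood or QL test, p adjusted by Benjamini-Hochberg across the 13483 genes), where 0.00742% of all tested genes, *Slc37a2* alone, were called. None had an unadjusted p below 0.05, against 0.712% of tested genes, and the counts of calls by edgeR's likelihood ratio test and by DESeq2's Wald test were likewise 0 of 10. For no member did the KO libraries lie all above the WT libraries, as they did for 1.5% of tested genes, or all below, as for 2.81%. The log2 fold changes had a median of 0.09 (7 positive, 3 negative), beside −0.02 over all tested genes (43.8% positive), and their median absolute value was 0.10, the same as over all tested genes. For 10 of 10 members the 95% confidence interval of the log2 fold change lay inside −1 to 1, as it did for 78.6% of tested genes. Changes beyond 2-fold thus lay outside each of the 10 intervals.

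*Plekhm1* (ENSMUSG00000034247.9, minus strand of chromosome 11, 103364275 to 103412687, 12 exons) encodes the adaptor of 1074 residues whose loss causes osteopetrosis. It was at 294, 320 and 359 scaled CPM in WT (K090, L080, L082) and at 448, 273 and 423 in KO (K089, L078, L081). KO K089 and L081 were the highest of the 6 libraries and KO L078 the lowest, so the KO libraries spanned the whole WT range. The means were 324 ± 32.8 and 381 ± 94.6 scaled CPM (SD, n = 3 each), and the log2 fold change was 0.23 (standard error 0.19, 95% interval −0.24 to 0.70, adjusted p = 0.969 by the edgeR QL test). The spread within KO, 1.64-fold from highest to lowest, exceeded the ratio of the means. Of its exonic sequence 334 nt also belong to the antisense gene *Arhgap27os1*, not analysed here, and whether the counting used strand is not given in the sources used here.

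*Def8* (ENSMUSG00000001482.15, plus strand of chromosome 8, 123423527 to 123463270, 14 exons) encodes a Plekhm1 partner that aids its binding to Rab7. It had 48.7, 46.4 and 38.2 scaled CPM in WT and 38.3, 45.6 and 40.2 in KO. Its pattern ran opposite to that of *Plekhm1*: WT K090 and L080 and KO L078 were high, and the other 3 were low. The log2 fold change was −0.10 (95% interval −0.38 to 0.18, adjusted p = 0.969 by the edgeR QL test).

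*Snx10* (ENSMUSG00000038301.15, plus strand of chromosome 6, 51523901 to 51590679, 7 exons) encodes a sorting nexin of 201 residues that osteoclasts need to resorb bone. At rank 77 of 13483 tested genes by mean level, it was the most abundant member, with 868, 962 and 1037 scaled CPM in WT and 1317, 862 and 1269 in KO. As for *Plekhm1*, KO L078 fell below every WT library while the other KO libraries lay above them all. For *Snx10* the place of L078 depended on scaling. Before TMM scaling it was at 914 CPM in KO L078, above the 903 CPM of WT K090. The log2 fold change was 0.27 (standard error 0.18, 95% interval −0.16 to 0.69, adjusted p = 0.969 by the edgeR QL test), the highest point estimate among the 10.

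**Figure D2:**
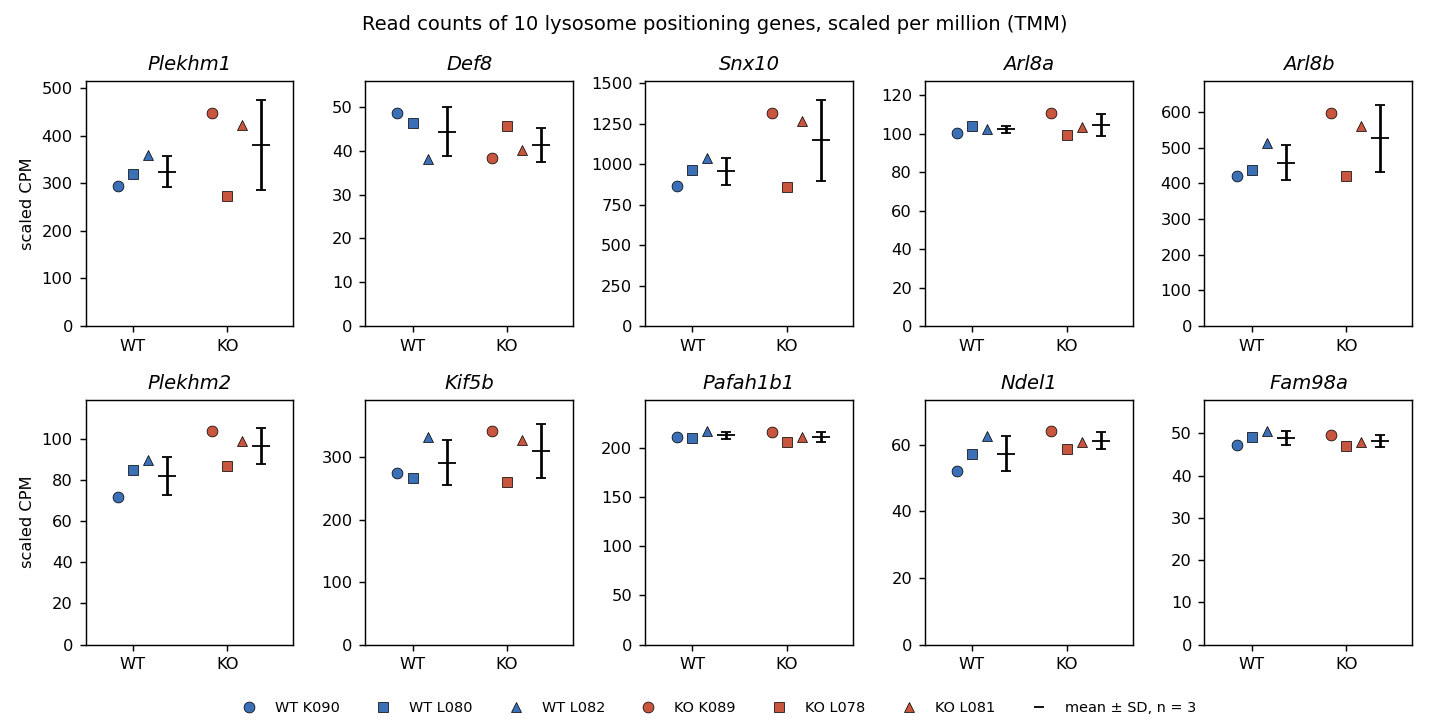
Scaled CPM of each gene in the 3 WT libraries (blue) and the 3 KO libraries (red), with the mean and SD of each genotype in black; each vertical axis starts at 0. For *Plekhm1*, *Snx10* and *Arl8b* the KO library L078 lies below the WT libraries and the other KO libraries above them, and the groups overlap in all 10 panels. Before TMM scaling, L078 lies above WT K090 for *Snx10* and *Arl8b*.

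The lysosomal GTPases differed from each other in how steady they were. *Arl8b* (ENSMUSG00000030105.8, plus strand of chromosome 6, 108783099 to 108825278, 7 exons) was at 421, 438 and 513 scaled CPM in WT and 598, 420 and 562 in KO. KO L078 and WT K090 were lowest and nearly equal, and KO K089 was highest. *Arl8a* (ENSMUSG00000026426.10, plus strand of chromosome 1, 135146824 to 135156269, 7 exons) was at 100.2, 104.0 and 102.5 scaled CPM in WT and 110.7, 99.2 and 103.7 in KO, a range of 1.12-fold over 6 libraries against 1.42-fold for *Arl8b*. The log2 fold changes were 0.20 for *Arl8b* (95% interval −0.17 to 0.57) and 0.03 for *Arl8a* (95% interval −0.12 to 0.18), both at adjusted p = 0.969 (edgeR QL test). The counts of *Arl8b* per count of *Arl8a*, a ratio within each library that no scaling alters, were 4.205, 4.213 and 5.01 in WT and 5.40, 4.24 and 5.42 in KO. The mean log2 ratio of *Arl8a* to *Arl8b* was −2.16 ± 0.14 in WT and −2.32 ± 0.20 in KO (SD, n = 3 each), a difference of −0.16 (exact permutation test, two-sided, p = 0.2, where 3 libraries against 3 cannot go below 0.1).

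The outward arm consists of *Plekhm2*, also known as SKIP, which joins Arl8 to kinesin light chains, and *Kif5b*, the kinesin-1 heavy chain. *Plekhm2* (ENSMUSG00000028917.14, minus strand of chromosome 4, 141625734 to 141664899, 20 exons) was at 71.7, 84.7 and 89.8 scaled CPM in WT and 103.6, 86.7 and 99.0 in KO. KO L078 lay between WT L080 and L082, and the other KO libraries lay above all 3 WT libraries. The log2 fold change was 0.23 (standard error 0.11, 95% interval −0.03 to 0.50), with the lowest p of the 10 genes (unadjusted p = 0.0733, adjusted p = 0.969 by the edgeR QL test). *Plekhm1* had 4.10, 3.78 and 3.998 counts per count of *Plekhm2* in WT and 4.32, 3.15 and 4.27 in KO. The mean log2 ratio was 1.98 ± 0.060 in WT and 1.95 ± 0.26 in KO (SD, n = 3 each; difference −0.03, exact permutation test, two-sided, p = 1, smallest possible p 0.1), with KO L078 the lowest of the 6 libraries.

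*Kif5b* (ENSMUSG00000006740.14, minus strand of chromosome 18, 6201002 to 6242174, 26 exons) was at 274, 267 and 333 scaled CPM in WT and 341, 261 and 327 in KO. Here WT L082 stood with KO K089 and L081, and the other 3 libraries formed a lower set. The log2 fold change was 0.09 (95% interval −0.24 to 0.42, adjusted p = 0.969 by the edgeR QL test). Its exons share 182 and 142 nt with the antisense genes *AC113003.1* and *Gm17036*, not analysed here.

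The dynein regulators *Pafah1b1* and *Ndel1*, together with *Fam98a* and *Arl8a*, had the 4 narrowest intervals of the 10 genes. *Pafah1b1* (ENSMUSG00000020745.15, minus strand of chromosome 11, 74673949 to 74724670, 11 exons), which encodes Lis1, was at 212, 211 and 217 scaled CPM in WT and 216, 206 and 212 in KO. It was the steadiest of the 10 genes, within 1.05-fold over 6 libraries, and its log2 fold change was −0.01 (95% interval −0.14 to 0.12, adjusted p = 0.981 by the edgeR QL test). *Ndel1* (ENSMUSG00000018736.14, minus strand of chromosome 11, 68821434 to 68871858, 9 exons), which encodes a Lis1 partner on dynein, was at 52.1, 57.3 and 62.6 scaled CPM in WT and 64.0, 58.8 and 60.8 in KO. The KO values of *Ndel1* sat at the upper end of the WT values, with a log2 fold change of 0.09 (95% interval −0.10 to 0.29). *Fam98a* (ENSMUSG00000002017.10, minus strand of chromosome 17, 75537086 to 75551946, 8 exons), which encodes a reported partner of Plekhm1, was at 47.2, 49.2 and 50.5 scaled CPM in WT and 49.7, 47.0 and 48.0 in KO. Its log2 fold change was −0.02 (95% interval −0.16 to 0.12), and for both genes the edgeR QL test gave an adjusted p of 0.969. The signs of the *Pafah1b1* and *Fam98a* estimates were not stable: *Pafah1b1* became positive with the DESeq2 size factors or upper quartile scaling, and without WT L082, KO L078 or KO L081, and *Fam98a* without WT L082 or KO L081.

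**Figure D3:**
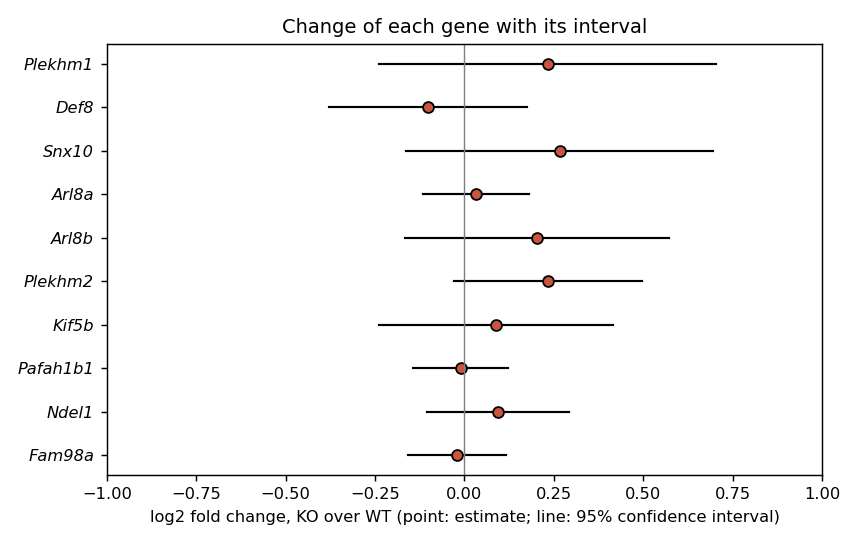
Log2 fold change of each gene in KO over WT, with the estimate as a point and its 95% confidence interval as a line, from the edgeR QL fit to 3 libraries per genotype. Every interval contains 0, and the widest, that of *Plekhm1*, runs from −0.24 to 0.70.

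The size and overlap of 4 of the changes leaned on KO library L078, though no member was called with or without it. With it left out, *Plekhm1*, *Plekhm2*, *Arl8b* and *Snx10* were each higher in both remaining KO libraries than in every WT library, which then held for 19.6% of all genes tested (22.1% were lower). Their log2 fold changes became 0.42, 0.30, 0.34 and 0.44, with unadjusted p of 0.00492, 0.0263, 0.0158 and 0.00411, a level below 0.05 that 20.1% of all genes then reached. The adjusted p was 0.227 for *Plekhm1*, *Arl8b* and *Snx10* and 0.228 for *Plekhm2* by the edgeR QL test, so none was called. With WT L082 left out, *Plekhm2* and *Ndel1* were higher and *Def8* lower in KO without overlap, beside 7.02% and 9.41% of tested genes. *Plekhm2* alone then had an unadjusted p below 0.05 by the edgeR QL test, a level that 1.98% of tested genes reached. With any of the other 4 libraries left out, 0 of 10 members separated by genotype, beside 3.64% to 3.91% of tested genes higher and 3.27% to 5.69% lower.

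The order of the libraries was shared by many of these genes and crossed genotype. KO K089, KO L081 and WT L082 were the 3 highest libraries for 7 of the 10 genes (*Plekhm1*, *Plekhm2*, *Arl8b*, *Snx10*, *Pafah1b1*, *Ndel1* and *Kif5b*), an order found in 20.8% of tested genes, and the 3 lowest for *Def8*, an order found in 22.6%. *Pafah1b1* belonged to the 7 only by a near tie, with 211.54 scaled CPM in KO L081 and 211.51 in WT K090. *Plekhm1* was 0.37 and 0.28 above its own mean on the log2 scale in K089 and L081 and 0.35 below it in L078, where the osteoclast marker sums were 69884, 63690 and 43860 CPM. *Snx10* (0.34, 0.29 and −0.27 from its mean) and *Arl8b* (0.29, 0.21 and −0.21) had the same shape. The part of osteoclast content, macrophage content and the interferon response in these differences was not tested.

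**Figure D4:**
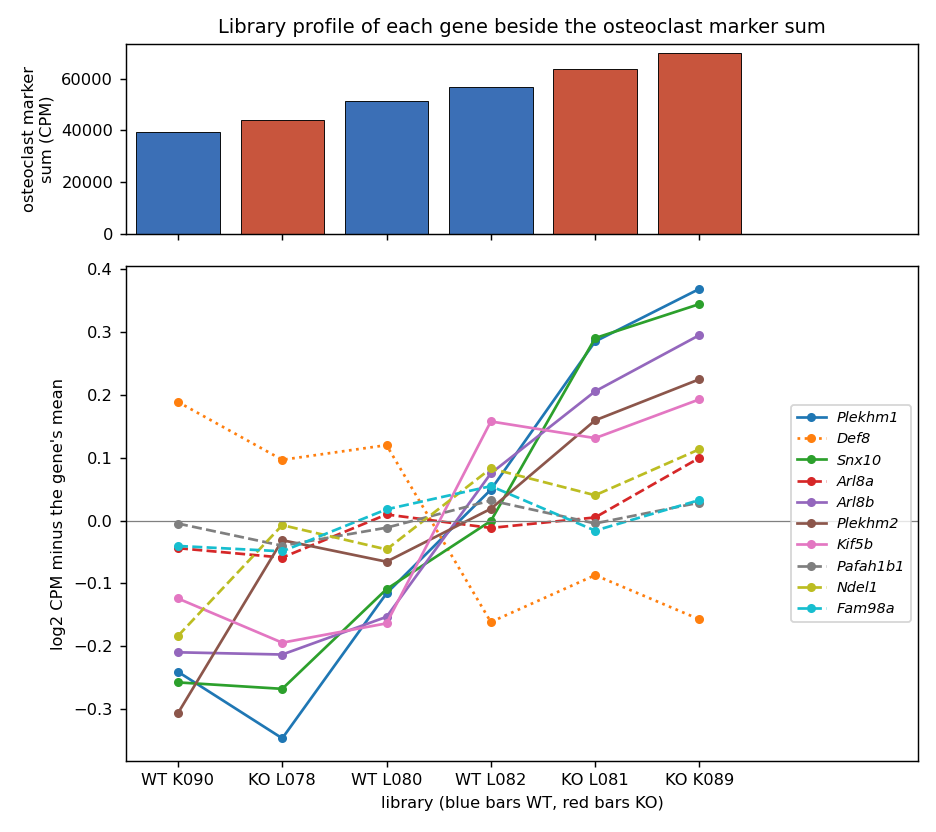
Upper panel, the summed CPM of 9 osteoclast markers, mainly *Mmp9*, *Ctsk* and *Acp5*, in each library (blue WT, red KO), from the lowest to the highest sum. Lower panel, log2 CPM of each gene minus its mean over the 6 libraries in the same order; *Plekhm1*, *Snx10* and *Arl8b* are below their means in the 3 libraries on the left and highest in the 2 on the right, *Def8* is above its mean on the left and below it on the right, and *Pafah1b1*, *Fam98a* and *Arl8a* stay within 0.10 of their means.

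The genes whose library profiles came closest to these were sought among all tested genes, by the root mean square difference between mean-centred log2 CPM over the 6 libraries. For *Plekhm1* they were *Atp6v1a* (0.0197), *Rnasek* (0.0217) and *Atp6v0e* (0.0241), where the median over all genes was 0.306. *Atp6v1a* and *Atp6v0e* encode subunits of the V-ATPase, the proton pump that acidifies lysosomes and the resorption pit. For *Snx10* they were *Atp6v0b* (0.0247), *Atp6ap1* (0.0263) and *Gpr137b-ps* (0.0275), the first a further V-ATPase subunit and the second an accessory protein of the pump. The closest to *Arl8b* were *1700025G04Rik* (0.0151), the cathepsin gene *Ctsz* (0.0206) and *Uqcrq* (0.0217). *Arl8a*, with its flat profile, was closest to *Arf3* (0.0135), *Ier3ip1* (0.0136) and *Decr1* (0.0146). The medians over all genes were 0.289 for *Snx10*, 0.257 for *Arl8b* and 0.155 for *Arl8a*, so distances from different genes are not on 1 scale. Among the 10 genes themselves, *Plekhm1* and *Snx10* differed by 0.0400, a distance that 0.111% of tested genes undercut relative to *Plekhm1*. *Fam98a* and *Pafah1b1* differed by 0.0219, undercut by 0.141% relative to *Fam98a*, and the *Arl8* paralogs by 0.165, undercut by 52.7% relative to *Arl8a*. Points share depth and scaling within a library, and 6 libraries are few for a profile.

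Neighbouring genes of the pathway were read from 10 lists with 92 symbols, of which 90 were tested. Of the other 2, *Dync1i1* had 11 counts in all 6 libraries together and did not pass the filter, and *Tmem55b* is an older symbol of *Pip4p1*, which was tested. In KO against WT, 0 of 90 were called in either direction by the edgeR QL test, 0 had an unadjusted p below 0.05, and 58 were positive and 32 negative, with a median log2 fold change of 0.02 beside −0.02 over all tested genes. The groups failed to overlap for a single gene, *Snx11*, at 22.2 ± 0.907 scaled CPM in WT and 21.2 ± 0.572 in KO (SD, n = 3 each), named after its values were seen. Over all tested genes the KO libraries lay all below WT for 2.81% and all above for 1.5%, and 0.712% had an unadjusted p below 0.05.

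BORC, the complex that brings Arl8 to lysosomes, had 7 of 8 genes positive (median 0.09). Its most abundant member by counts, *Snapin*, was at 43.7 in WT and 43.9 in KO, and *Borcs6* had its largest log2 fold change, 0.23. The HOPS tethering complex, which Plekhm1 and Arl8 both bind, had 6 of 6 positive (median 0.06), with *Vps39* at 184 in WT and 190 in KO and *Vps11* at a log2 fold change of 0.13. Of the LC3 and GABARAP proteins, to which Plekhm1 binds on autophagosomes, 5 of 5 were positive (median 0.14), with *Gabarap* at 352 in WT and 386 in KO and *Map1lc3a* at a log2 fold change of 0.39. None of these 19 genes passed the test.

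The kinesin list had 6 of 13 positive (median −0.02). *Kif1b*, whose product also moves lysosomes outward, was at 169 in WT and 167 in KO, and *Kif5c*, at 1.39 and 0.859 scaled CPM, had the largest log2 fold change, −0.67. Dynein and dynactin had 14 of 22 positive (median 0.01), with the heavy chain *Dync1h1* at 613 in WT and 609 in KO and *Actr1b* at a log2 fold change of 0.19. Adaptors that link Arl8 or Rab7 to dynein had 8 of 11 positive (median 0.07), with *Spag9* (JIP4) at 269 in WT and 287 in KO and *Osbpl1a* at −0.40.

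*Rab7*, the GTPase that Plekhm1 binds, was at 626 ± 50.2 scaled CPM in WT and 685 ± 109 in KO (SD, n = 3 each, log2 fold change 0.13), and its list had 4 of 11 positive, with the low-count gene *Rubcnl* at −0.45. *Tcirg1* and *Clcn7*, the V-ATPase a3 subunit and the lysosomal chloride transporter whose loss also causes osteopetrosis, were the most abundant gene and the largest change in the list kept for *Snx10* (6 of 8 positive, median 0.16). *Tcirg1* was at 2020 ± 298 scaled CPM in WT and 2480 ± 597 in KO, a log2 fold change of 0.30, and *Clcn7* at 1065 ± 167 and 1341 ± 406, a log2 fold change of 0.33 (SD, n = 3 each; adjusted p = 0.969 for both by the edgeR QL test). The list of *Fam98* relatives and their partners in the tRNA ligase complex had 1 of 4 positive, with the ligase *Rtcb* at 135 in both genotypes and *Ddx1* at −0.10, and *Pafah1b2*, a catalytic partner of Lis1, was at 117 in WT and 114 in KO.

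**Figure D5:**
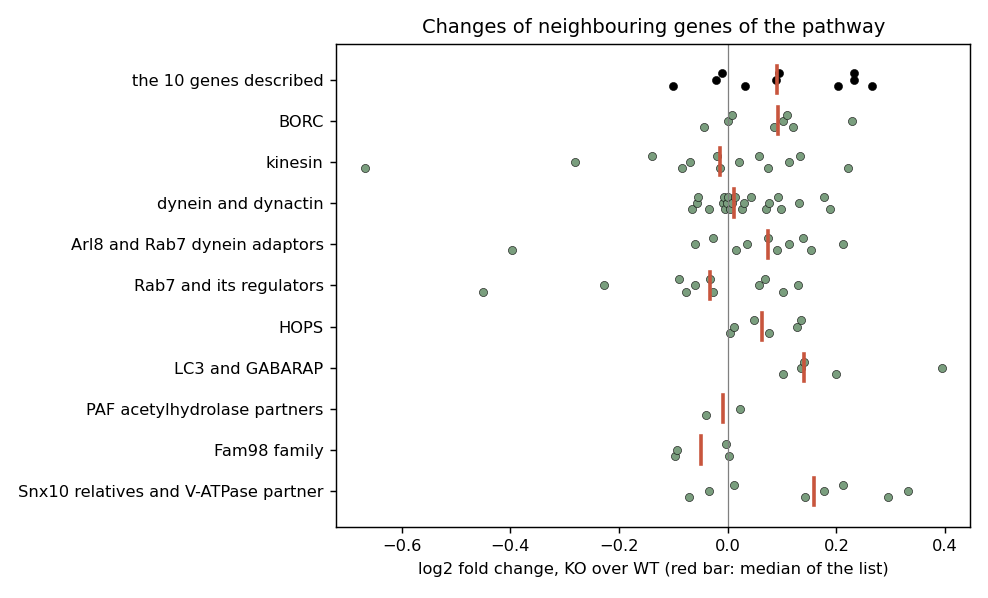
Log2 fold change in KO over WT of the 10 genes described (black) and of the 90 tested genes of 10 neighbouring lists (green), with 1 point per gene and a red bar at each list's median. Medians lie between −0.05 and 0.16, and no point was called.

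The promoters were searched for the E-box bound by the lysosomal regulator TFEB and its relatives, in RefSeq windows (GRCm38.p6) from 250 bases before to 50 after each start. Windows were at hand for 8 of the 10 genes, without *Arl8b* and *Kif5b*. The 8-base form TCACGTGA was in 0 of 8 genes, and in 1.125% of the 27025 genes with windows (0.974% of the 32851 windows). Its palindromic core CACGTG, which every longer match also holds, was in 1 of 8 genes, *Ndel1*, and in 8.09% of all genes with windows (7.15% of windows). The *Ndel1* stretch is shown because it holds the one match, with the core in capitals and its first base 74 bases before the start, on the minus strand. This RefSeq start lies inside the GENCODE span of *Ndel1* (68821434 to 68871858), not at the upstream end of that span.
Ndel1 (chr11:68853164-68853249): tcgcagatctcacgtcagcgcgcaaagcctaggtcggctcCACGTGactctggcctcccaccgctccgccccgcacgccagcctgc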

How the data were processed

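RNAseq of 3 WT and 3 *Slc37a2* KO libraries was analysed. The deposited table holds raw counts by gene symbol, in whole numbers, beside the log2 fold changes, mean levels, likelihood ratios, p and FDR of the authors' own edgeR comparison, which were not used. A second, shorter table was not used either. The submitters' processing notes name mm10, bcl2fastq 2.20.0.422 and edgeR 3.30.3, and the aligner and counter are not named (not given in the sources used here). Columns were assigned to genotype by heading, and 0 columns were left unassigned.

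Counts were filtered with filterByExpr, scaled by TMM and tested with glmQLFit and glmQLFTest (edgeR 4.0.16, limma 3.58.1, R 4.3.3) on genotype, and p was adjusted by Benjamini-Hochberg across 13483 genes. DESeq2 1.42.0 was an alternative. Intervals are 95%. The biological coefficient of variation was 20.8%. The fit was tested on simulated data. P-values measure the spread between these libraries, and with 3 per genotype small changes are not detectable at this depth of replication. Exact permutation tests used scipy 1.17.1. Coordinates and lengths are from GENCODE M21. Genes, pathway lists and markers were chosen with earlier results of these data known. Of each list, genes past the test, the most abundant by scaled CPM and the largest change were named, and for *Plekhm1*, *Arl8a*, *Arl8b* and *Snx10* the 3 closest profiles.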

Additional observations from a re-analysis of the deposited data

How the results depend on the processing

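*Slc37a2* stayed called, between −5.83 and −5.80 on the log2 scale under other scalings, filters and tests, and ran from −5.94 to −5.69 when any 1 library was dropped. None of the 10 genes and none of the pathway genes was called under any of the alternatives, and 132 of 140 alternative fold changes of the 10 genes kept their direction. The number of genes called was 2, *Slc37a2* and *En2*, without the filter and under the likelihood ratio test of edgeR and the Wald test of DESeq2. *Pafah1b1* was 0.00770 when scaled by the DESeq2 size factors, 2.6e-05 when scaled by the upper quartile and 0.00730 in the Wald test. With a library left out, *Pafah1b1* ran from −0.019 to 0.028 and *Fam98a* from −0.046 to 0.026. The number of the 10 genes with groups that did not overlap ran from 0 (without WT K090, WT L080, KO K089 or KO L081) to 4 (without KO L078). Of all tested genes, 3.64% to 3.91% were then higher and 3.27% to 5.69% lower in the former fits, and 19.6% and 22.1% in the latter. The difference in the log2 ratio of *Plekhm1* to *Plekhm2* ran from −0.11 to 0.12 (without KO L078). The cause was not tested. *Kif5b* ran from 0.03 to 0.22, *Ndel1* from 0.03 to 0.19, *Def8* from −0.18 to −0.03 and *Arl8a* from 0.01 to 0.07 in the same way. The KO minus WT difference in the log2 ratio of *Arl8a* to *Arl8b* ran from −0.28 to −0.10. The ratio of *Ndel1* to *Plekhm2* per kilobase was 0.911 by the length of all exons. No paired analysis was possible because neither the sample labels nor the column headings state which WT and KO animals belong together. The animal numbers begin with K (1 library of each genotype) or L (2 of each), a letter whose meaning is not given in the sources used here. A fit with this letter as a block, added after seeing the data, called *Slc37a2* alone (−5.83) and left the direction of the 10 genes as it was, from −0.10 for *Def8* to 0.26 for *Snx10*.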
